A study of Mus musculus with 4 samples.

Results

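The glypican family of heparan sulfate proteoglycans was measured as 6 genes, Gpc1 to Gpc6, of the 140 genes in an imaging panel. The members were chosen by name, and all 6 were present on all 4 coverslips. The assay was MERFISH, which decodes single RNA molecules in place through repeated rounds of probe hybridization. Coronal sections of 10 µm that held the barrel cortex, the sensory area of the whiskers, came from P5 mouse brains, 24 h after the whiskers of the right snout had been lesioned at P4. Each coverslip carried 1 wild-type section and 1 Cx3cl1(-/-) section, the latter lacking the chemokine fractalkine in every cell. The mice were male on coverslips 1 and 2 and female on the other pair. All groups shared the lesion, and no unlesioned animal was labelled. No column gives the genotype, the hemisphere, the brain region or the type of a cell, so genotypes and hemispheres were not compared, and every value pools both genotypes and both sides. Nothing in the labels says how many litters the sections came from, so the p-values below measure only the spread between these coverslips and populations.

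Glypicans are core proteins that a lipid anchor holds to the outer face of the cell membrane and that carry heparan sulfate chains. The chains bind Wnt, Hedgehog, BMP and FGF ligands, and a glypican can present a ligand to its receptor, hold it back or, once shed from the cell, carry it away. In the developing brain Gpc4 and Gpc6 are known as astrocyte-secreted factors that promote excitatory synapses, Gpc5 as a glypican of maturing astrocytes, Gpc1 as a glypican of neurons, Gpc2 as a glypican of neurons that are still differentiating, and Gpc3 as an inhibitor of Hedgehog signalling that restrains growth.

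The family took 8696930 of 192921713 gene counts, or 4.51%. On coverslips 1 to 4 Gpc1 took 2.71%, 2.54%, 2.93% and 2.54% of the gene counts. Gpc5 took 0.72%, 0.766%, 0.703% and 0.609%, and Gpc6 took 0.586%, 0.567%, 0.604% and 0.544%. The other 3 were rarer, with 0.21% to 0.302% for Gpc4, 0.145% to 0.221% for Gpc2 and 0.138% to 0.163% for Gpc3. These shares order detected molecules. Probe number and efficiency differ between genes, so levels are compared below within a gene and not between genes.

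Of 863580 segmented cells, 794833 had at least 20 gene counts and were kept. Depth differed between coverslips: kept cells had a median of 161, 162, 185 and 273 gene counts on coverslips 1 to 4, and counts per cell are best compared within a coverslip. No cell with at least 100 counts, of 597499, had the same gene counts as a cell on another coverslip. Blanks, barcodes assigned to no gene whose counts are decoding errors, took 1.16% to 1.48% of the counts. Cells were clustered on 31 marker genes, none of them a glypican, and 23 populations with 97.5% of the kept cells were described. The label on every coverslip is barrel cortex, but the largest population was led by Slc17a6 and Tcf7l2, genes of thalamic rather than cortical neurons, so the sections hold more than cortex.

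The populations are named by the markers that led them, and a cell type name ending in "-like" is used where at least 3 markers of that type, and more than of any other type, were 2-fold higher and among the 10 genes with the highest fold. The cortical layer-gene neurons were 4 populations, led by Cux2, by Rorb with Cux2, by Rorb alone and by Syt6. The Gad neurons were 6 populations that had Gad1 or Gad2, the enzymes that make GABA, among their leading markers. The remaining neuron populations were led by Slc17a6, by Bcl11b and by Emx2, the last counted with neurons because Bcl11b was 2-fold higher there. Astrocyte-like cells formed a Gfap-led and an Aldh1l1-led population. OPC-like cells are oligodendrocyte precursors. The vessel populations were led by Cldn5 and Pecam1, genes of endothelium, and by Pdgfrb, a gene of mural cells. A border population was led by Mrc1 and Lyve1, genes of the macrophages at the brain's surface and around its vessels. The panel holds only 2 border macrophage markers, 2 endothelial and 2 mural ones and none of the fibroblast or ventricle markers looked for, so the vessel and border populations are not given a cell type. The border population also had at least 3 microglial markers at 2-fold or more and a population led by Musk, Gfap and Ezr had 3 astrocyte markers, but in each fewer than 3 of these were among the 10 leading genes, so neither took that name or entered that class.

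Neurons held most of the counts of every glypican, and the rest was divided unequally. The neuron populations made up 61.3% ± 2.56 of the cell volume (SD, n = 4 coverslips). They held 82.0% ± 0.687 of the Gpc1 counts, 75.2% ± 2.61 of Gpc2, 70.0% ± 1.63 of Gpc5, 69.4% ± 1.66 of Gpc6, 63.0% ± 4.73 of Gpc3 and 60.7% ± 3.62 of Gpc4. Gpc1, Gpc2, Gpc5 and Gpc6 therefore stood above the neurons' share of volume on every coverslip, while Gpc3 and Gpc4 lay near it. Astrocyte-like cells, with 11% ± 1.02 of the volume, held 15.8% ± 1.35 of Gpc5, 15.4% ± 1.99 of Gpc4 and 12% ± 1.01 of Gpc6, but 3.18% ± 0.257 of Gpc1. Vessel and border populations, with 8.39% ± 0.659 of the volume, held 22.8% ± 4.81 of Gpc3 and between 1.6% ± 0.215 (Gpc5) and 7.73% ± 1.05 (Gpc4) of the others. OPC-like cells, with 6.51% ± 0.691 of the volume, held 6.13% ± 0.508 of Gpc5 and 4.9% ± 0.635 of Gpc6, and 2.01% to 3.3% of the other 4.

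**Figure D1:**
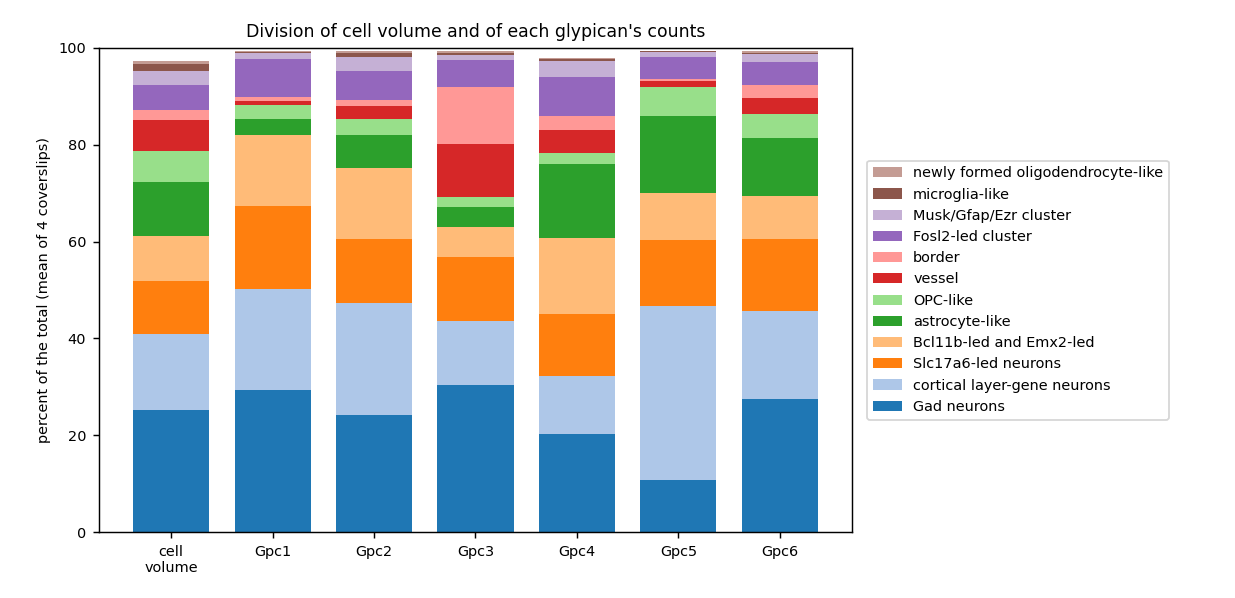
Percent of each glypican's counts that lay in each class of populations, mean of 4 coverslips, beside the same division of cell volume; the rest up to the top of the axis lay in clusters not described. Cortical layer-gene neurons, with 15.7% of the volume, hold 35.9% of the Gpc5 counts, and vessel and border populations hold 22.8% of the Gpc3 counts.

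Each population was tested against the mean of the other 22 by edgeR's quasi-likelihood fit on counts summed per coverslip, with coverslip as a block and cell volume as the offset, against a 2-fold difference and with Benjamini-Hochberg adjustment over the 109 genes not used for clustering. A call also needed a level above each of the 40 blanks on every coverslip on the higher side, which for a population called lower is the mean of the others. The spread in this fit comes from all populations together, so the SE is not that of a single comparison over 4 coverslips. Of 138 combinations of a glypican and a population, 35 were called, 18 higher and 17 lower, and all 35 had the same direction on 4 of 4 coverslips. A further 6 passed the adjusted p but not the blanks. The low side of some calls was itself not above every blank on all coverslips: Gpc4 in newly formed oligodendrocyte-like and microglia-like cells, Gpc5 in Bcl11b/Syt6/Gad2 and Vip-led neurons and Gpc6 in Syt6-led neurons. For the Gpc2 and Gpc3 calls, all of them higher, the low side is the mean of the others. That mean was not above every blank on all coverslips either. The size of all these log2 differences is limited by that background. Gpc5 was called in 13 populations, Gpc1 in 8, Gpc4 and Gpc6 in 5 each and Gpc2 and Gpc3 in 2 each.

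The share of all 109 genes called differed widely between populations and is the background for these counts. In the Rorb-led population 4 glypicans were called higher, where 16.5% of all genes were called, and in the Cux2-led population 3 were called higher, where 9.17% were. In the microglia-like population 4 glypicans were called lower, where 42.2% of all genes were called and the median of all genes was -1.33 on the log2 scale. The Pdgfrb vessel population had 3 calls against 34.9% of all genes, and the Cldn5/Pecam1 vessel population 3 against 32.1%. There were 2 calls each in the Slc17a6-led (13.8%), Bcl11b-led (12.8%), Syt6-led (8.26%), Gfap-led astrocyte-like (23.9%) and newly formed oligodendrocyte-like (20.2%) populations. There was 1 call each in the Rorb/Cux2 (13.8%), Bcl11b/Syt6/Gad2 (9.17%), OPC-like (8.26%), Fosl2-led (9.17%), Aldh1l1-led astrocyte-like (22%), border (33.9%), Emx2-led (2.75%) and Vip-led (6.42%) populations. No glypican was called in 5 populations: the Gad2/Gad1 (3.67%), Sst (6.42%), Gad1/Cux2 (10.1%) and Gad1/Bcl11b (4.59%) neurons and the Musk/Gfap/Ezr population (20.2%). Only the Sst and Gad2/Gad1 populations among these met the rule for an inhibitory neuron-like name.

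**Figure D2:**
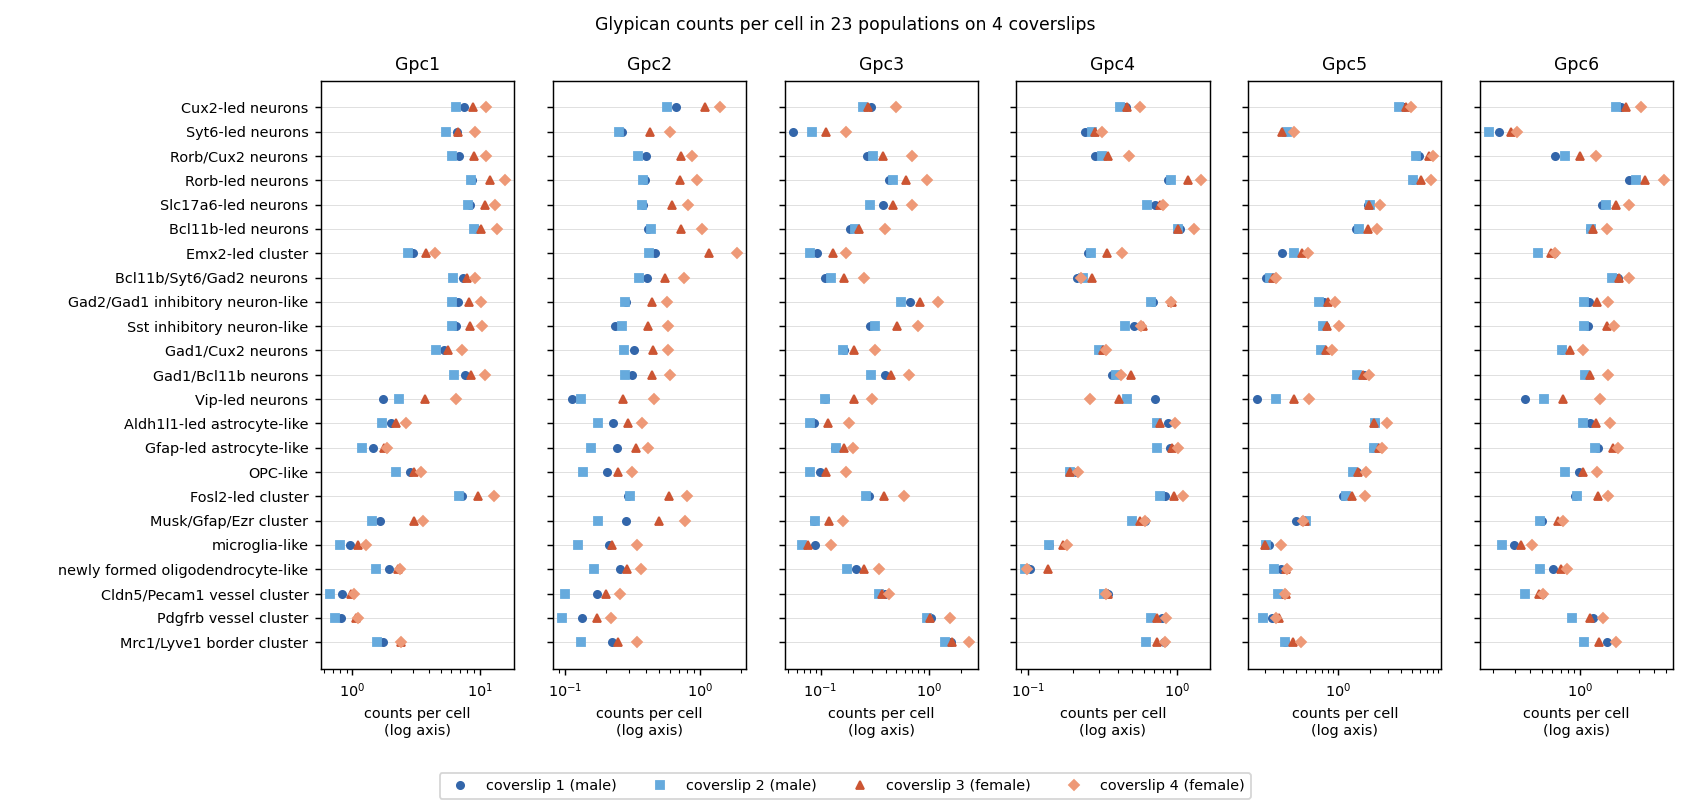
Counts per cell of each glypican in each of the 23 populations, on a log axis with its own range for each gene and with 1 point per coverslip. On all 4 coverslips Gpc3 is highest in the border population, Gpc5 in Rorb/Cux2 neurons and Gpc6 in Rorb-led neurons, and Gpc1 is lowest in the vessel populations.

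To show the regulatory sequence of the glypicans with the most contrasting division, Gpc5 in layer-gene neurons and Gpc3 in border and vessel populations, the 250 bases before the transcription start are given from RefSeq on build GRCm38.p6, read 5′ to 3′ on the gene's strand with CpG dinucleotides in capitals. The Gpc5 sequence is chr14:115091965-115092214 on the plus strand and the Gpc3 sequence chrX:52613975-52614224 on the minus strand.
Gpc5: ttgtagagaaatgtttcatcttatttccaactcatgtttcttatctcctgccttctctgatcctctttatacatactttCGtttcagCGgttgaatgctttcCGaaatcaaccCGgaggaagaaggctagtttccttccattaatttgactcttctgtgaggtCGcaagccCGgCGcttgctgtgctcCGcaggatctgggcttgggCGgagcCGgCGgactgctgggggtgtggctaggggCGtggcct
Gpc3: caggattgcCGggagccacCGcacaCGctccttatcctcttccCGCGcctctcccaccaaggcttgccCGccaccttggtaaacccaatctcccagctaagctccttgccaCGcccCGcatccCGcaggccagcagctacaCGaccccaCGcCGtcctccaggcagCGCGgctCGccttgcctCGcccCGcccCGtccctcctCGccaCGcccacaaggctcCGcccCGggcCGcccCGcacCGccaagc
The Gpc5 sequence held 12 CpG and 51.2% G and C, and the Gpc3 sequence 25 CpG and 71.6%, where the median of 32851 promoters of this length was 6 CpG and 52.4%. The motif TATAAA occurred 1 time before Gpc5 and 0 times before Gpc3, counted on both strands, and 12.4% of all promoters held it. The motif GGGCGG occurred 1 time and 3 times, and 32.7% of promoters held it. These matches describe letters and bear no test. Of the 6 glypicans 4 had an entry, and Gpc2 and Gpc4, with 19 and 18 CpG, are not printed. Gpc3 and Gpc4 lie next to each other on chromosome X and Gpc5 and Gpc6 on chromosome 14, with 0 protein-coding genes between the members of each pair, whose levels over populations had r = 0.46 and 0.57.

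Gpc1 and Gpc2, the glypicans best known from neurons, peaked in different populations. Gpc1 reached 8.65, 8.51, 12.2 and 16 counts per cell on coverslips 1 to 4 in Rorb-led neurons, 9.45, 9.04, 10.3 and 13.8 in Bcl11b-led neurons, and 8.36, 8.05, 11.1 and 13.3 in Slc17a6-led neurons. The order of these 3 changed between coverslips, so they were not told apart. All 3 passed the test, with log2 differences of 1.43 ± 0.08 (SE; adjusted p = 2.6e-06), 1.40 ± 0.08 (9.0e-06) and 1.29 ± 0.08 (0.00101), where the median of all genes was 0.46, 0.53 and 0.51. With TMM factors, which scale each population to an unchanged bulk of genes, all 3 calls were lost. They were also lost with library totals, the summed gene counts, as the scale (1.02, 0.94 and 0.60). The call in Slc17a6-led neurons was lost at clustering resolution 3 as well (1.10, adjusted p = 0.22). Gpc1 was also called higher in the Fosl2-led population (1.20 ± 0.08, adjusted p = 0.0304), whose leading genes name no cell type. That call was lost without coverslip 2 (1.19, adjusted p = 0.122), without coverslip 3 (1.19, 0.128) and without coverslip 4 (1.17, 0.108), and with TMM factors. Library totals (0.97), DESeq2 (1.20, 0.286) and resolution 3 (1.17, 0.0554) lost it as well.

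At the other end, the Pdgfrb vessel population had 0.817, 0.728, 1.06 and 1.11 Gpc1 counts per cell, and the Cldn5/Pecam1 population 0.825, 0.665, 0.975 and 1.03. Both lay below every neuron population on every coverslip (log2 -2.44 ± 0.11, adjusted p = 4.6e-23, and -2.33 ± 0.11, 1.8e-21). The Gfap-led astrocyte-like population was called lower as well (-1.51 ± 0.10, 1.7e-07), as was the microglia-like one (-2.13 ± 0.11, 3.9e-18), the latter not with TMM factors. Of 22 pairs of neighbours in the order of Gpc1 levels, 9 kept their order on all 4 coverslips.

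Gpc2 was highest in the Emx2-led population, with 0.461, 0.418, 1.17 and 1.88 counts per cell, and in Cux2-led neurons, with 0.667, 0.573, 1.09 and 1.41. The Cux2-led neurons were higher on coverslips 1 and 2 per cell, and over volume the order of these populations was not the same on all coverslips. Both were called higher than the mean of the others (log2 1.61 ± 0.09, adjusted p = 4.2e-08, and 1.33 ± 0.09, 0.00148), the first not when the spread was taken from that comparison alone over coverslips and the second not with TMM factors. Cux2-led neurons exceeded the next population, Bcl11b-led neurons, by 0.55 ± 0.09 (SD, n = 4) on the log2 scale, on all 4 coverslips. Emx2, which leads that population, is a transcription factor of the developing cortex and hippocampus. Only 5 of 22 neighbour pairs in the order of Gpc2 levels kept their order on all coverslips, and Gpc2 in Rorb-led and Slc17a6-led neurons stood above every blank on 2 of 4 coverslips. The lowest Gpc2 levels were in the Cldn5/Pecam1 and Pdgfrb vessel populations, where Gpc2 stood above every blank on 0 and 1 of 4 coverslips, so no order is read there.

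Gpc4, Gpc5 and Gpc6, the glypicans known from astrocytes, were all present in astrocyte-like cells, but the mean of each over coverslips was highest in a neuron population. Gpc5 reached 5.92, 5.54, 7.4 and 7.93 counts per cell in Rorb/Cux2 neurons, a marker pair of cortical layer 4, where thalamic input arrives. Rorb-led neurons had 5.21, 5.17, 6.2 and 7.71, and Cux2-led neurons 4.25, 3.78, 4.44 and 4.9. The Aldh1l1-led astrocyte-like cells followed with 2.24, 2.23, 2.19 and 2.95. These 4 stood in the same order on every coverslip, and successive gaps were 0.18 ± 0.07, 0.42 ± 0.10 and 0.87 ± 0.10 (SD, n = 4) on the log2 scale over volume.

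The 3 neuron populations were called higher in Gpc5 than the mean of the others by 3.01 ± 0.06 (adjusted p = 8.3e-44), 2.82 ± 0.06 (4.6e-40) and 2.38 ± 0.06 (9.5e-31). So were the Aldh1l1-led (1.47 ± 0.07, 1.9e-08) and Gfap-led (1.41 ± 0.07, 3.9e-07) astrocyte-like populations and the Slc17a6-led neurons (1.24 ± 0.07, 0.00275). The last call was lost with TMM factors, with library totals and at resolution 3. The fourth cortical layer-gene population was the opposite: Syt6-led neurons, marked by a gene of layer 6, had 0.314, 0.323, 0.29 and 0.384 Gpc5 counts per cell and were called lower (-1.49 ± 0.10, 2.8e-07). The Bcl11b/Syt6/Gad2 neurons, whose markers are those of striatal projection neurons, had 0.205, 0.225, 0.238 and 0.257 (-2.08 ± 0.10, 1.7e-18), above every blank on 1 of 4 coverslips. The Cldn5/Pecam1 (-1.65 ± 0.10, 6.0e-11) and Pdgfrb (-2.16 ± 0.10, 2.3e-20) vessel populations, newly formed oligodendrocyte-like cells (-1.68 ± 0.10, 1.5e-10), microglia-like cells (-2.10 ± 0.10, 6.5e-19, lost with TMM factors) and Vip-led neurons (-1.28 ± 0.10, 0.00195) were also called lower. The Vip-led population had a median of only 68 counts per cell, and its call was lost without coverslip 1 (-1.06, adjusted p = 0.505), without coverslip 2 (-1.21, 0.0815) and with TMM factors (-0.97). That call held in only 6 of 15 alternatives.

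At least 1 Gpc5 molecule was counted in 90.7% ± 1.79 of Rorb/Cux2 neurons (median depth 222 counts per cell) and in 13% ± 1.52 of microglia-like cells (median depth 128). The share in the Bcl11b/Syt6/Gad2 neurons was 17.2% ± 1.11 at a median depth of 231, close to the microglia-like level. The shares were not corrected for depth.

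Gpc6 also peaked in a Rorb-led population, but in another one than Gpc5. Rorb-led neurons had 2.52, 2.86, 3.38 and 4.82 Gpc6 counts per cell, and Cux2-led neurons 2.15, 1.98, 2.38 and 3.15. The Rorb/Cux2 neurons, highest in Gpc5, had only 0.626, 0.767, 1.01 and 1.36, below the Rorb-led neurons on every coverslip. This pair was chosen after its values were seen and was not tested. Against the mean of the others, Gpc6 was called higher in Rorb-led (1.68 ± 0.08, adjusted p = 5.7e-11) and Cux2-led neurons (1.24 ± 0.08, 0.0162). The first call was lost at clustering resolution 1 (0.84), where Rorb-led and Rorb/Cux2 neurons were matched to the same cluster. The second was lost with TMM factors, with DESeq2 (adjusted p = 0.163), without coverslip 2 (1.20, 0.13) and at resolution 3 (1.14, 0.0753).

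Syt6-led neurons were lowest in Gpc6 of all 23 populations, with 0.222, 0.184, 0.28 and 0.31 counts per cell (-2.17 ± 0.12, 6.3e-17), below microglia-like cells on all 4 coverslips over volume but above every blank on only 3. The Bcl11b/Syt6/Gad2 neurons, which share the Syt6 marker and had little Gpc5, had the next highest Gpc6 level after Cux2-led neurons, with 2.03, 1.81, 2.06 and 2.52. Gpc6 was also called lower in microglia-like cells (-1.86 ± 0.12, 3.3e-12, lost with TMM factors) and in the Cldn5/Pecam1 vessel population (-1.22 ± 0.11, 0.0097). The latter call was lost with TMM factors (-0.88), library totals (-0.89), DESeq2 (adjusted p = 0.0684), without coverslip 4 (-1.14, 0.0774) and at resolution 1 (-0.65). In the Gfap-led astrocyte-like cells it had 1.41, 1.32, 1.87 and 2.04 counts per cell, above the Aldh1l1-led ones with 1.2, 1.07, 1.35 and 1.77 on every coverslip.

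Gpc4 was the most evenly spread of the 3. Bcl11b-led neurons had 1.05, 1.01, 1.01 and 1.3 Gpc4 counts per cell and Rorb-led neurons 0.874, 0.913, 1.18 and 1.44, in an order that changed between coverslips. Both were called higher than the mean of the others (1.25 ± 0.08, adjusted p = 0.00417, and 1.21 ± 0.08, 0.0162). Both calls were lost with TMM factors and with library totals. That in Rorb-led neurons was also lost without coverslip 2 (1.22, adjusted p = 0.0541), without coverslip 3 (1.20, 0.0657) and without coverslip 4 (1.13, 0.0918). DESeq2 (1.21, 0.131), limma (1.21, 0.0732) and resolution 1 (0.66) lost it as well. The Gfap-led astrocyte-like cells had 0.891, 0.73, 0.923 and 1.01 and the Aldh1l1-led ones 0.864, 0.733, 0.772 and 0.974, and neither passed the 2-fold test (0.91 and 0.85 on the log2 scale).

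Gpc4 was called lower in both populations of the oligodendrocyte lineage. OPC-like cells had 0.209, 0.193, 0.192 and 0.218 Gpc4 counts per cell (-1.31 ± 0.10, 7.7e-04), and newly formed oligodendrocyte-like cells 0.103, 0.0961, 0.137 and 0.0986 (-2.22 ± 0.12, 4.3e-17). The call in OPC-like cells was lost with TMM factors, with library totals and at resolution 1. Microglia-like cells had 0.139, 0.138, 0.173 and 0.184 (-1.68 ± 0.11, 4.1e-10, lost with TMM factors and with library totals). Newly formed oligodendrocyte-like cells stood above every blank on 1 of 4 coverslips and microglia-like cells on 3, so these are not ordered. The Musk/Gfap/Ezr population, with Gfap and Slc1a3 among its leading genes, had 0.614, 0.501, 0.568 and 0.606 and was not called (0.61 on the log2 scale). Gpc4 was counted in 49.6% ± 3.28 of Gfap-led astrocyte-like cells and 15.4% ± 0.611 of OPC-like cells, against 11.7% ± 1.11 of microglia-like cells, at median depths of 202, 117 and 128.

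Gpc3 was the one glypican whose mean level over coverslips was highest outside neurons. The border population had 1.62, 1.41, 1.66 and 2.36 counts per cell on coverslips 1 to 4, and the Pdgfrb vessel population 1.05, 0.973, 1.02 and 1.58. The Cldn5/Pecam1 vessel population had 0.394, 0.344, 0.37 and 0.426, below the Pdgfrb population on each coverslip. The border and Pdgfrb populations were called higher than the mean of the others (3.05 ± 0.07, adjusted p = 1.0e-41, and 1.96 ± 0.07, 4.1e-19), and both calls held under every alternative run. At clustering resolution 1 both vessel populations were matched to the same cluster, so the Pdgfrb call there is that of the shared cluster. Gpc3 was counted in 55.4% ± 7.62 of the Pdgfrb population and 50.6% ± 6.29 of the border population, against 6.33% ± 1.73 of microglia-like cells, at median depths of 161, 121 and 128. In microglia-like and Aldh1l1-led astrocyte-like cells Gpc3 stood above every blank on 0 of 4 coverslips, and in OPC-like cells on 1.

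Gad2/Gad1 neurons followed the Pdgfrb population in Gpc3, with 0.671, 0.557, 0.84 and 1.21 counts per cell. Their log2 difference of 1.54 ± 0.08 passed the adjusted p (3.2e-08), but on coverslip 2 a blank reached 0.717 per cell, so no call was made. That blank stood alone there: the second-highest of the 40 reached 0.177. The order from the border population through Pdgfrb, Gad2/Gad1, Rorb-led and Sst neurons held on all 4 coverslips, although the Sst neurons were above every blank on only 1.

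The border population was mixed in a finer clustering, and its Gpc3 was not spread evenly. A subcluster with 63.5% of its cells had 2.29 ± 0.542 Gpc3 counts per cell (SD, n = 4), 1.73 ± 0.391 of Gpc6, 4.15 ± 0.412 of Pdgfra and only 0.257 ± 0.0343 of Mrc1. A subcluster with 11.8% of the cells, at 15 ± 2.67 Mrc1 and 8.11 ± 2.04 Lyve1 counts per cell, had 1.42 ± 0.209 of Gpc3. A subcluster with 16.5% of the cells had 0.182 ± 0.0542 of Gpc3 and 0.451 ± 0.0999 of Gpc6. These values are over whole subclusters: of the first 11674 of 12711 cells lay in the border population and of the second 2175 of 2228, but of the last only 3039 of 6703. The subcluster with the most Gpc3 per cell thus had little of the macrophage marker Mrc1. No cell type is given to the subclusters, and they were not tested.

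Glypican counts in microglia-like cells were set against genes that mark other cell types. Counts per volume in microglia-like cells, as a percent of the highest population, were 9.52% ± 1.03 for Gpc1, 21.6% ± 8.66 for Gpc2, 4.14% ± 0.526 for Gpc3, 14.5% ± 2.09 for Gpc4, 3.38% ± 0.376 for Gpc5 and 9.71% ± 1.59 for Gpc6. Measured the same way, neuronal Slc17a6 reached 4.71% ± 0.172, Gad1 4.83% ± 0.135 and astrocytic Slc1a3 7.07% ± 0.482. Meg3, highest in Slc17a6-led neurons, reached 4.15% ± 0.586 and Pdgfra, highest in OPC-like cells, 2.79% ± 0.169. Cldn5 reached 1.58% ± 0.315 and Rorb 1.27% ± 0.146. Gpc3 and Gpc5 lay between the lowest and the highest of these genes. Whether counts in microglia-like cells are their own RNA or stray molecules of neighbouring cells was not tested.

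Classes of populations were then compared in pairs in the same fit. In astrocyte-like against OPC-like cells 1 glypican was called, where 20.2% of all genes were. Gpc4 had 0.877, 0.731, 0.849 and 0.995 counts per cell in astrocyte-like and 0.209, 0.193, 0.192 and 0.218 in OPC-like cells. The groups did not overlap, and the log2 difference was 2.10 ± 0.12 (adjusted p = 1.5e-15). Gpc5 and Gpc6 had differences under the tested 2-fold, at 0.61 and 0.53 on the log2 scale with volume offsets and at 0.03 and -0.05 with library totals, which moved the median of all genes from 0.33 to -0.26. With library totals Gpc1 was called lower in astrocyte-like cells (-1.22, adjusted p = 6.2e-04). Of the genes called, 100% were higher in astrocyte-like cells with volume offsets, 80% with TMM factors and 63.6% with library totals.

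In astrocyte-like against neuron populations 1 glypican was called, where 39.4% of all genes were. Gpc1 had 1.74, 1.43, 1.99 and 2.26 counts per cell in astrocyte-like cells and 6.56, 5.79, 7.86 and 9.7 in Gad neurons, the lowest of the larger neuron classes. Its log2 difference from the mean of the neuron populations was -2.03 ± 0.08 (adjusted p = 8.2e-24). Gpc5 (1.01, adjusted p = 0.417) and Gpc4 (0.79) were not called, although both were higher on 4 of 4 coverslips, and Gpc3 (-1.13, adjusted p = 0.0172) passed the p but not the blanks. With TMM factors, which moved the median of all genes from -0.59 to -0.19, they were called, at 1.42 (4.1e-10) and 1.19 (0.00615). Of the genes called, 51.2% were higher in astrocyte-like cells with volume offsets and 75.7% with TMM factors.

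In cortical layer-gene against Gad neurons 1 glypican was called, where 5.5% of all genes were. Gpc5 had 3.45, 3.25, 3.7 and 4.39 counts per cell in the cortical and 0.637, 0.613, 0.7 and 0.849 in the Gad neurons. These class values did not overlap, with a log2 difference of 2.10 ± 0.05 (adjusted p = 1.5e-33). Single populations did. Rorb/Cux2, Rorb-led and Cux2-led neurons lay above every Gad population. Syt6-led neurons, at a mean of 0.328, lay below Gad1/Bcl11b (1.74), Sst (0.818), Gad2/Gad1 (0.782) and Gad1/Cux2 (0.765) neurons. They lay near Vip-led neurons (0.333) and above Bcl11b/Syt6/Gad2 neurons (0.231). The other 5 differed by less than 2-fold, from -0.08 for Gpc3 and Gpc6 to 0.62 for Gpc2. In Slc17a6-led against cortical layer-gene neurons 0 glypicans were called by edgeR, where 9.17% of all genes were and 14 of 109 genes had an unadjusted p under 0.05. DESeq2 also called 0. The differences ran from -0.42 for Gpc5 to 0.66 for Gpc6. Against no difference 3 were called, without a share of all genes to set beside them. Of the genes called, 90% were higher in the Slc17a6-led neurons with volume offsets and 50% with library totals.

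In vessel against astrocyte-like cells 2 glypicans were called in opposite directions, where 32.1% of all genes were called. Gpc3 had 0.597, 0.513, 0.571 and 0.767 counts per cell in the vessel populations and 0.111, 0.112, 0.142 and 0.192 in astrocyte-like cells (2.28 ± 0.09, adjusted p = 2.7e-23). Gpc5 had 0.269, 0.246, 0.303 and 0.295 in vessel and 2.19, 2.22, 2.32 and 2.79 in astrocyte-like cells (-3.20 ± 0.09, 2.1e-39). Neither gene's groups overlapped, and both calls held with TMM factors. The Gpc3 level of the Aldh1l1-led astrocyte-like cells was at the blanks, which limits the size of its difference. Gpc1 was not called here (-1.08) but was called lower in the vessel populations at clustering resolutions 1 (-1.21, adjusted p = 0.0015) and 3 (-1.36, 3.9e-07). Of the genes called, 42.9% were higher in the vessel populations with volume offsets and 54.1% with library totals.

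In border against vessel populations 3 glypicans were called higher, where 29.4% of all genes were called. Gpc1 had 1.75, 1.55, 2.39 and 2.43 counts per cell in the border and 0.822, 0.682, 1 and 1.05 in the vessel populations, and Gpc6 had 1.65, 1.08, 1.43 and 1.96 against 0.734, 0.499, 0.705 and 0.813. Neither gene overlapped. The calls were Gpc3 (1.72 ± 0.10, adjusted p = 7.3e-10), Gpc1 (1.51 ± 0.10, 2.1e-06) and Gpc6 (1.35 ± 0.11, 0.00105). All 3 calls were lost with another scaling. With TMM factors the median of all genes moved from 0.67 to -0.14, and Gpc3, Gpc1 and Gpc6 fell short of the test at 0.93, 0.71 and 0.55 (adjusted p = 1 for each). With the number of cells as offset Gpc6 was not called (1.02, 0.615). Gpc1 was also not called at clustering resolutions 1 (1.11, 0.0549) and 3 (1.11, 0.144), while Gpc4 was called at resolution 3 (1.19, 0.0136). At resolution 3 the border class held only the subcluster low in Mrc1 and not the one rich in Mrc1 and Lyve1. The share of called genes that were higher in the border population was 90.6% with volume offsets and 52.2% with TMM factors.

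**Figure D3:**
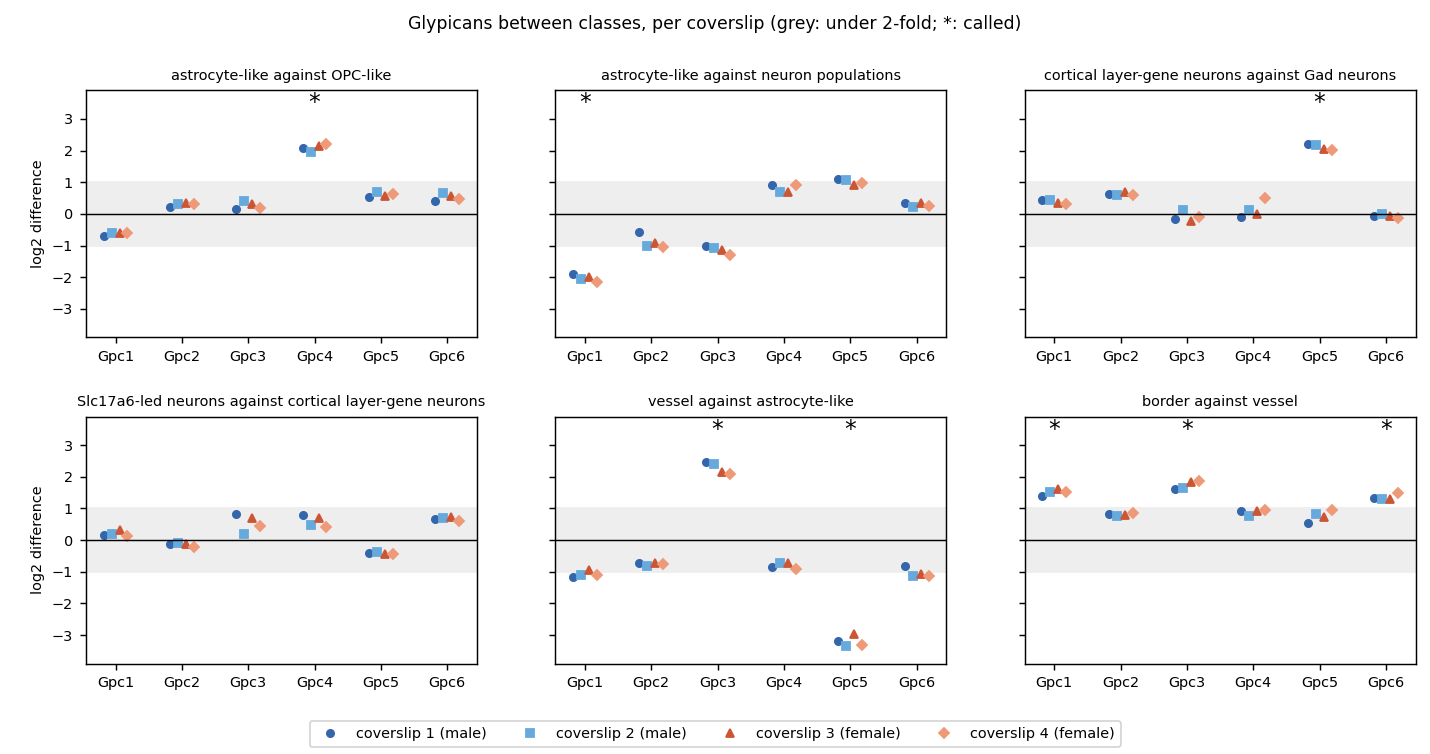
Log2 differences of the 6 glypicans in the 6 paired comparisons, with the value of each of the 4 coverslips as a point, a grey band for differences under 2-fold and an asterisk above each called gene. Gpc5 is higher in cortical layer-gene than in Gad neurons and lower in vessel than in astrocyte-like cells on every coverslip, and Gpc4 is higher in astrocyte-like than in OPC-like cells.

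Astrocyte-like cells were also divided by the neuron class most common among their 20 nearest neurons of the cortical layer-gene, Slc17a6-led and Gad classes. The Bcl11b-led and Emx2-led populations, with 9.53% of the cells, were not counted as neighbours. Astrocyte-like cells among them were therefore assigned to one of the other surroundings. In Slc17a6-led against cortical surroundings 0 glypicans were called, where 3.67% of all genes were and 4 had an unadjusted p under 0.05. In Gad against cortical surroundings 0 were called, where 0.917% were and 3 had an unadjusted p under 0.05. DESeq2 called 0 in both. The 2 comparisons share the cortical surroundings. Gpc6 had 1.65, 1.51, 1.97 and 2.39 counts per cell in cortical surroundings, 1.15, 1, 1.41 and 1.61 in Slc17a6-led ones and 1.24, 1.15, 1.57 and 1.85 in Gad ones. It was thus highest in cortical surroundings on each coverslip, by log2 differences of -0.54 and -0.40 for the other surroundings. Gpc4 was lower in Slc17a6-led surroundings on 4 of 4 coverslips, at 0.689, 0.579, 0.674 and 0.742 against 0.964, 0.788, 0.858 and 1.14. These differences lay under the tested 2-fold. The Gfap-led population made up 30.4% to 38.5% of astrocyte-like cells in Slc17a6-led surroundings and 44.8% to 50.7% in cortical ones. Within the Gfap-led population alone Gpc6 differed by -0.48 and Gpc4 by -0.45 between these surroundings, and within the Aldh1l1-led one by -0.54 and -0.54.

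All cells of the female coverslips were set against those of the male ones, 2 against 2, with edgeR's quasi-likelihood F test and TMM factors over all 140 genes, of which 5% were called. Gpc2 took 0.155% and 0.145% of the gene counts on the male and 0.221% and 0.208% on the female coverslips. The groups did not overlap, and Gpc2 was called higher in females (log2 0.56 ± 0.18, adjusted p = 0.0333). The two-sided exact permutation test of the share gave p = 0.333, the smallest that 2 against 2 allows, and the call was lost whichever coverslip was left out (0.53 to 0.58, adjusted p from 0.112 to 0.607). The female coverslips were also the deeper ones, so sex, coverslip and depth cannot be told apart. The other 5 glypicans were not called, with log2 differences from -0.21 for Gpc4 to 0.18 for Gpc3. Of these, Gpc3, Gpc4 and Gpc5 had shares that did not overlap between the sexes either, each with an exact permutation p of 0.333. Overlap was not counted over all genes, so the lack of it is not read as support for Gpc2. No blank filter was applied in this comparison, and Gpc2 over all cells was not above every blank on every coverslip.

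The 8 sections, separated by position, showed the same peaks for 3 genes. Gpc3 was highest in the border population in 8 of 8 sections, at 4.99 to 6.94 times the level per volume over all kept cells of the section. Gpc5 was highest in Rorb/Cux2 neurons in 8 of 8, at 3.54 to 4.88 times, and Gpc6 in Rorb-led neurons in 8 of 8, at 2.06 to 2.75 times. Gpc1 was highest in Rorb-led neurons in 5 sections and in Bcl11b-led neurons in the others. Gpc2 was highest in the Emx2-led population in 4 and in Cux2-led neurons in the others. For Gpc4 the highest population changed between Rorb-led neurons, the border population and, in 1 section, Bcl11b-led neurons. The share of gene counts taken by a glypican differed between the sections of a coverslip by at most 1.27-fold, for Gpc2. Which section is wild-type was not assigned.

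Squares of side 200, in the coordinate units of the files, with at least 20 cells were ranked by each gene's counts per volume, and the top 10% were described, 150 to 166 squares per coverslip. Squares ranked by a gene's own counts hold more of the cells that carry it, so their makeup is a description. In the top squares of Gpc5, Rorb/Cux2 neurons made up 19.3% of the cells (16.1% to 21.2% over coverslips) against 2.94% in all squares, and Cux2-led neurons 21.8% against 5.88%. In those of Gpc3, border cells made up 9.65% against 2.32% and Gad2/Gad1 neurons 19.1% against 7.86%. In those of Gpc2, Cux2-led neurons made up 20.5% and the Emx2-led population 4.03% against 1.15%. The top squares of Gpc1 held 19.4% Bcl11b-led neurons against 8.4%. Those of Gpc6 held 13.6% Bcl11b/Syt6/Gad2 neurons against 7.32%, 13.3% Cux2-led neurons against 5.88% and 4.71% Rorb-led neurons against 1.94%. Those of Gpc4 held 13.9% Gad2/Gad1 neurons against 7.86%, although Gpc4 was not called in that population, 12.1% Bcl11b-led neurons against 8.4% and 4.14% Rorb-led neurons against 1.94%.

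**Figure D4:**
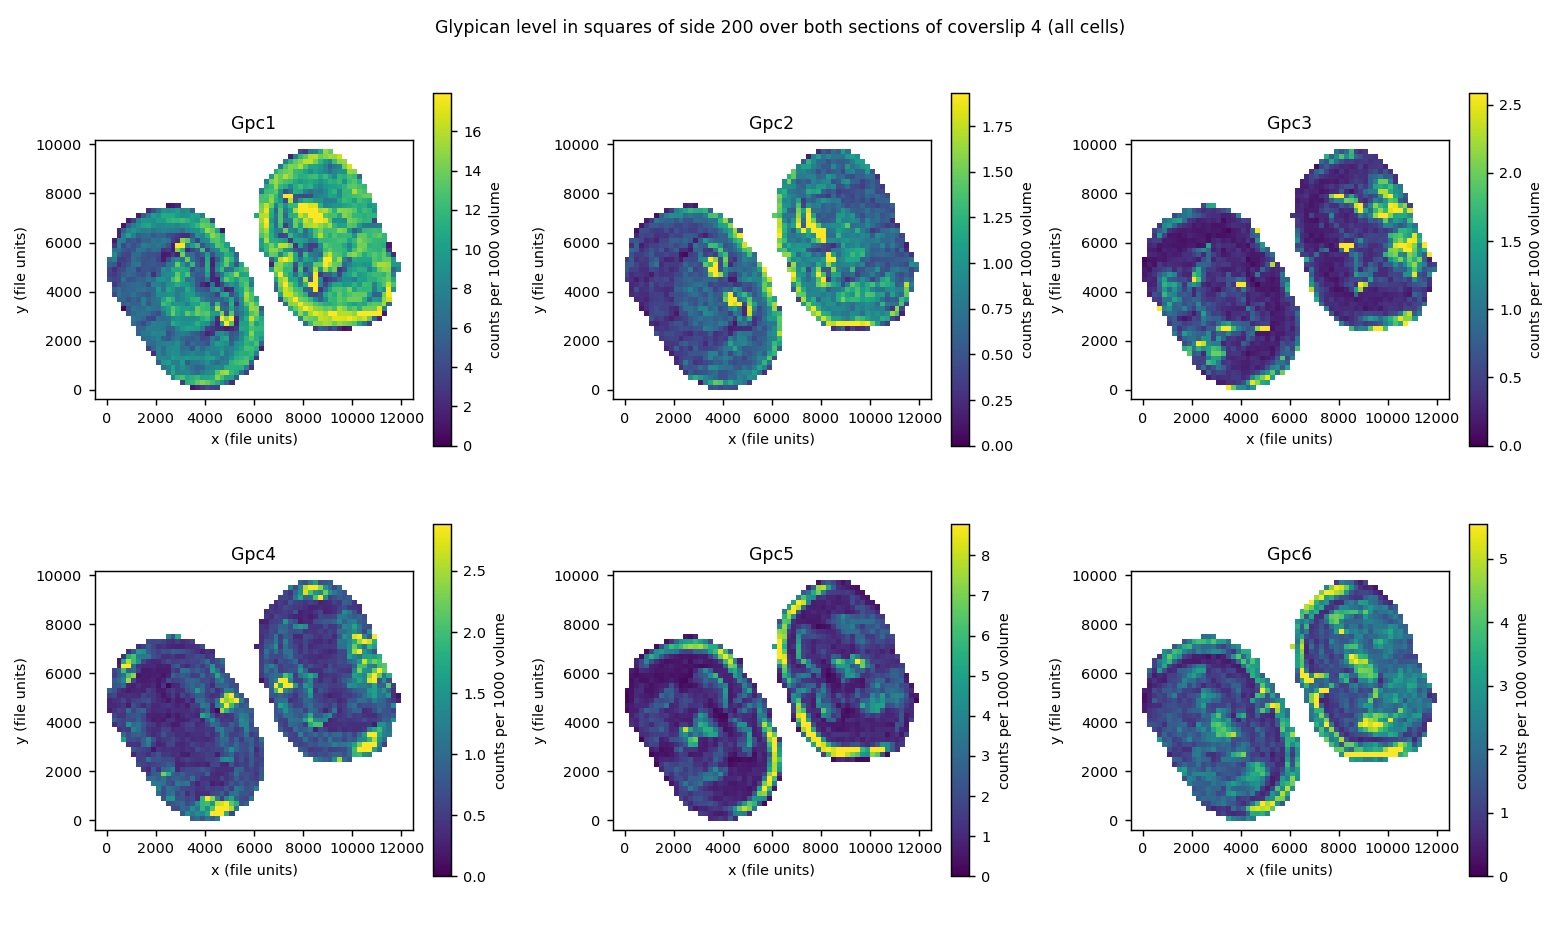
Counts per cell volume of each glypican in squares of side 200 on coverslip 4, with position in the coordinate units of the files and a colour scale per gene. Gpc5 forms a curved band near the outer rim of both sections, while Gpc3 lies in spots and along edges. Each colour scale ends below the highest squares, which share its last colour.

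Over the 23 populations, the panel genes whose mean log2 level per volume was most like that of Gpc1 were Btrc (Pearson r = 0.97), Gsk3b (0.96) and Porcn (0.96). Btrc and Gsk3b act in the breakdown of beta-catenin, the effector of Wnt signalling, and Porcn attaches the lipid that Wnt ligands need for secretion. Those most like Gpc2 were the Wnt receptor Fzd3 (0.82), Porcn (0.80) and Apc2 (0.78). Gpc3 was most like Reck (0.75), Lyve1 (0.73, a clustering gene) and Adgra2 (0.73), and Gpc4 most like Bcl2 (0.75), Gli3 (0.72) and Wnt4 (0.65). Gpc5 was most like Rorb (0.83, a clustering gene), Fzd9 (0.76) and Wnt3 (0.67). Gpc6 had no close partner, with Sfrp5 (0.58), Gpc4 (0.58) and Gpc5 (0.57) first. Between glypicans, r ran from -0.09 for Gpc2 and Gpc3 to 0.75 for Gpc1 and Gpc2. The populations share coverslips and depth, so these are descriptions without a test.

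The genes that glypicans act with were taken as lists. Of 18 Wnt receptors and co-receptors, 6 were called higher and 1 lower in astrocyte-like cells against neurons (median log2 difference 0.36, against -0.59 over all genes), with Fzd2 at 2.87, Fzd10 at 1.70 and Lrp5 at 1.48, where 39.4% of all genes were called. Against OPC-like cells 4 were higher and 0 lower (0.55, against 0.33), where 20.2% of all genes were called. Both counts are near the share of all genes. Against astrocyte-like cells, 6 were higher and 4 lower in the vessel populations, where 32.1% of all genes were called, with Adgra2, a co-receptor for Wnt7 in endothelium, at 4.65 and the receptors Fzd6 at 3.80 and Fzd9 at -2.85. Of 17 Wnt ligands, 7 were higher in the border than in the vessel populations and 0 lower (0.83, against 0.67), led by Wnt6 at 2.78, Wnt4 at 2.61 and Wnt2b at 2.31, where 29.4% of all genes were called. Of 6 secreted antagonists, 4 were higher and 0 lower there (2.21), led by Sfrp1 at 3.15, Sfrp4 at 2.78 and Sfrp5 at 2.48. Of 3 readouts of signalling, all 3 were higher in astrocyte-like cells than in neurons, where 39.4% of all genes were called: Etv4, a target of FGF signalling, at 3.02, Id1, a target of BMP, at 2.15 and Gli3, a factor of the Hedgehog pathway, at 1.73. In cortical layer-gene against Gad neurons, the comparison that divided Gpc5, the ligand Wnt7b (2.09) and the receptor Fzd9 (1.78) were the calls from these lists beside Sdc1. The border values carry the scaling limit given above.

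The syndecans are the other cell surface heparan sulfate proteoglycans. Of 4, Sdc4 was called higher (3.53) and Sdc3 (-1.59) and Sdc1 (-1.52) lower in astrocyte-like cells than in neurons, where 39.4% of all genes were called. Sdc1 was called higher in cortical layer-gene than in Gad neurons (1.60), as Gpc5 was. Sdc2 was highest in the Pdgfrb vessel population, with 1.58, 2, 1.83 and 2.74 counts per cell. The families were not tested against each other.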

How the data were processed

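The deposited values are raw transcript counts in each segmented cell for 140 genes and 40 blank barcodes, with other measures (cell volume and centre, unit not stated) per the file headers. How the authors decoded and segmented the images is not given in the sources used here. The labelled barrel cortex sections came from 4 coverslips, grouped by sex.

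The members and gene lists were chosen with earlier results of these data known. The genes named are the 6 glypicans, the 3 genes most like each over populations and the called list members with the largest differences. Cells with fewer than 20 counts were left out, 60000 cells were clustered on 31 markers (Leiden, resolution 2; leidenalg 0.10.2) and the rest took the majority cluster of 15 neighbours. A population took a type name where at least 3 markers of that type, more than of any other, were 2-fold higher and among its 10 leading genes. No doublet caller was run on segmented cells. Of 27 clusters 4 were left out for low counts. Counts were summed per coverslip and population, never tested per cell, and compared with edgeR 4.0.16 (R 4.3.3), glmTreat against 2-fold, at an adjusted p of 0.05. The test was checked on simulated data. Alternatives were other scalings, DESeq2 1.42.0, limma 3.58.1, the count minimum, resolutions 1 and 3, low-signal squares and each coverslip left out.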

Additional observations from a re-analysis of the deposited data

Results flagged for a closer look

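Among the 4 clusters left out of the populations for low counts, 2 carried glypican counts above every blank on all 4 coverslips. In 1 of them, with 4745 cells and a median of 54 counts per cell, 4 glypicans did so: Gpc1 at 6.17, Gpc5 at 0.917, Gpc6 at 0.889 and Gpc4 at 0.555 counts per cell. In the other, with 1037 cells and a median of 45 counts, 2 did: Gpc1 at 2.72 and Gpc6 at 0.62. How many of all genes did so was not counted, so this is not read as particular to glypicans. Neither enters a comparison of populations, but the cells of both are part of the sex comparison and of the section shares, which use all kept cells. No coverslip stood apart from the other 3 in any glypican difference tested for this.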

How the results depend on the processing

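Of the 35 population calls, 17 kept direction and call under each of up to 16 alternatives and 18 lost the call under at least 1, most often under TMM factors (16) or library totals (11). The count of 35 became 22 with TMM factors, 19 of them shared, 94 when tested against no difference, and 32 to 34 with each coverslip left out. Gpc5 in the Vip-led population turned to 0.27 at resolution 1, where that population has almost no counterpart. At that resolution some populations were matched to the same cluster. Among them were both vessel populations, both astrocyte-like ones, Rorb-led with Rorb/Cux2 neurons and Bcl11b-led neurons with the Fosl2-led population. Calls of these populations kept or lost there are those of the shared cluster. Against no difference, glypicans called were 5 for astrocyte-like against OPC-like, 4 for astrocyte-like against neurons, 4 for cortical against Gad, 3 for Slc17a6-led against cortical, 6 for vessel against astrocyte-like, 6 for border against vessel, and 4 and 3 for the surroundings of astrocyte-like cells (Slc17a6-led and Gad). The share of all genes called against no difference was not worked out, so these counts and the 94 have no background to be read against. With TMM factors 3 were called for astrocyte-like against neurons and 0 for border against vessel. With library totals 2 were called for astrocyte-like against OPC-like and 2 against neurons, and without the blank filter 2 against neurons. For sex, 0 were called with library totals and 0 without low-signal squares, while DESeq2 kept the Gpc2 call. The blank filter removed Gpc2 before the test, so the 0 calls made with it do not bear on Gpc2. With each coverslip left out, 1 coverslip of a sex remained, and the Gpc2 log2 difference was 0.53 to 0.58. Shares of counts in neurons moved by less than the spread between coverslips. The highest population of Gpc1, Gpc2 and Gpc4 was not the same in all sections, as given above. The alternatives within each astrocyte-like cluster and without the Emx2-led or Vip-led cluster were chosen after seeing the data. Low counts limit Gpc2 and Gpc3, which lay under the highest blank on some coverslips in several neuron populations, Gpc2 also in both vessel populations and Gpc3 in astrocyte-like, OPC-like and microglia-like cells. The population comparisons were made within coverslips, as a block. For sex and genotype no paired analysis was possible because replicate numbers only name coverslips and the files do not say which section is wild-type. The cause of these changes was not tested.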
